A study of Mus musculus with 30 samples.

Results

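The genes that bring iron into the cell, store it, release it or sense it were followed in cultured mouse osteoclasts, the bone-resorbing cells that form when macrophage precursors fuse. The 10 genes were named one by one from what their proteins do (Tfrc, Slc11a2, Steap3, Steap4, Slc11a1, Fth1, Ftl1, Ncoa4, Slc40a1 and Ireb2). They were chosen with earlier results of these data known, and are 10 of the 50686 genes counted. All 10 had enough counts to be tested. The RNA came from 30 cultures in 10 groups of 3. The mice were C57BL/6J, wild type (WT) or Terc-/- (here KO, without the RNA template of telomerase), and their marrow was grown into macrophages. Osteoclast formation was then driven with RANKL (100 ng/ml) and M-CSF (25 ng/ml) in 10% fetal bovine serum. WT donors were 1, 6 or 20 months old and KO donors 1 or 6 months. Cultures were harvested when large multinucleated cells were present, and WT cultures of 6-month and 20-month donors also after 2 days. The question is how donor age and loss of Terc bear on osteoclast gene expression. Titles of some libraries carry the number 519 (KO multinucleated cultures of 1 and 6 months) or a D1 tag (WT multinucleated cultures of 1 month). The labels explain neither, so these 9 libraries form groups of their own, named set 519 and set D1. Unprefixed libraries are those with neither tag. Set 519 holds no WT culture and set D1 no KO culture, so in any comparison across sets the set and the genotype cannot be told apart. Whether replicates are separate animals or cultures is not said, so p-values reflect the variation among the deposited libraries, possibly technical variation alone.

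Iron reaches the cell bound to transferrin, which the transferrin receptor (Tfrc) carries into endosomes. There a ferrireductase of the STEAP family (Steap3, Steap4) reduces the metal, and the transporter DMT1 (Slc11a2) moves it into the cytosol. The related transporter NRAMP1 (Slc11a1) is known from the phagosomes of macrophages, and whether it is active in this mouse strain was not measured. Iron that is not used is stored in ferritin, a shell of heavy (Fth1) and light (Ftl1) chains, which the cargo receptor NCOA4 (Ncoa4) delivers to lysosomes for breakdown. Ferroportin (Slc40a1) is the known route of iron out of mammalian cells. Iron regulatory proteins, of which Ireb2 encodes IRP2, bind hairpins called iron-responsive elements when the cell is short of iron. In a 5′ UTR this blocks translation of the ferritins and of ferroportin, and in the 3′ UTR it protects the Tfrc transcript from decay. Osteoclasts are rich in mitochondria and are known to raise transferrin-dependent iron uptake as they mature.

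Elements of this control that match a strict pattern are shown here. Their position separates transcripts whose amount it changes from transcripts whose translation it changes, and RNA counts read only the amount. The UTRs of the GRCm38 annotation were searched on the transcript strand for a C, 5 bases, the loop CAGTGN and 5 bases that pair with the 5 before the loop (Watson-Crick or G-T pairs). Each sequence is 30 bases, 5′ to 3′, with the loop in capitals.
Fth1, 5′ UTR, chr19:9982732-9982761, plus strand: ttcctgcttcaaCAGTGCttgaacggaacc
Ftl1, 5′ UTR, chr7:45459778-45459807, minus strand: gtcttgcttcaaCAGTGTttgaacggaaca
Slc40a1, 5′ UTR, chr1:45925464-45925493, minus strand: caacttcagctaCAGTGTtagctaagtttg
Tfrc, 3′ UTR, chr16:32631219-32631248, plus strand: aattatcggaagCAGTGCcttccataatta
Tfrc, 3′ UTR, chr16:32631598-32631627, plus strand: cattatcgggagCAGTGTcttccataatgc
Tfrc, 3′ UTR, chr16:32631663-32631692, plus strand: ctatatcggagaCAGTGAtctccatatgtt
Tfrc, 3′ UTR, chr16:32631710-32631739, plus strand: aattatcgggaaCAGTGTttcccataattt
Of 20899 genes with an annotated 5′ UTR, 31 (0.148%) held such a pattern there, and of 21022 with a 3′ UTR, 129 (0.614%). A match to the letters is a description, not a measured binding site. The pattern allows no unpaired base among the 5 pairs, so elements with a bulge there are missed. A gene without a match, Slc11a2 among them, is therefore not shown to lack an element.

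All 10 genes were covered by the counting annotation. Tfrc (ENSMUSG00000022797) lies at chr16:32608920-32632794, Slc11a2 (ENSMUSG00000023030) at chr15:100387898-100425072, Slc11a1 (ENSMUSG00000026177) at chr1:74375195-74386062, Fth1 (ENSMUSG00000024661) at chr19:9982703-9985092, Ftl1 (ENSMUSG00000050708) at chr7:45457944-45459884 and Slc40a1 (ENSMUSG00000025993) at chr1:45908068-45926523. Steap3 (ENSMUSG00000026389) lies at chr1:120190757-120272705, Steap4 (ENSMUSG00000012428) at chr5:7960457-7982213, Ncoa4 (ENSMUSG00000056234) at chr14:32159865-32179855 and Ireb2 (ENSMUSG00000032293) at chr9:54863789-54912530. The ferritins have near-identical copies in the genome. The annotation names 14 related genes and pseudogenes besides Fth1 and Ftl1, of which 5 had any counts, 7138 in all 30 libraries together, against 3287751 for Fth1 and 2055564 for Ftl1. No option to count reads that match several places is recorded, and by default the counting program leaves them out. Ferritin levels can thus be too low by the reads shared with a copy, and the counts of the copies do not show how many. Ftl1 also shares 355 exonic bases with the antisense gene Gm10252 (3 to 53 counts a library) and 109 with Gm22133 on its own strand (0 counts), and Slc11a2 shares 402 with the antisense gene Gm5475 (0 to 14 counts).

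Total counts were 4269798 to 12987993 in the 6 libraries of set 519 and 13182063 to 25147975 in the other 24. The knocked-out gene could not check the genotype labels: Terc had 0 counts in all 12 KO libraries, but also in 15 of the 18 WT libraries, and at most 2 in any. Set D1 stood apart in sex, with 13791 to 17522 Xist counts and 0 counts of Ddx3y, while the other 27 libraries held at most 9 Xist counts and at least 369 of Ddx3y. Levels are TMM-scaled CPM, that is counts relative to the library total, given as mean ± SD over the 3 libraries of a group. The labelled stage was set against 10 osteoclast markers (Acp5, Ctsk, Mmp9, Calcr, Itgb3, Oscar, Ocstamp, Dcstamp, Atp6v0d2 and Car2). Their summed level was 20530 to 24558 CPM in multinucleated WT cultures of 6 and 20 months and 3465 to 4593 CPM in the 2-day cultures. It was lower still in 3 unprefixed groups labelled multinucleated, at 619 to 679 CPM in KO 1-month, 2231 to 2334 CPM in WT 1-month and 2307 to 2616 CPM in KO 6-month cultures. The sum was 44108 to 46513 CPM in set D1, and 6916 to 8131 CPM and 26336 to 27521 CPM in set 519 at 1 and 6 months. The highest sums are mostly Mmp9, Ctsk and Acp5, which reached 23101, 11621 and 8732 CPM, while the next highest, Atp6v0d2, reached 1251 CPM. The 12 macrophage markers (Csf1r, Adgre1 and Lyz2 among them) ran from 47107 to 50579 CPM in KO 1-month down to 9103 to 10134 CPM in the 2-day cultures. This sum is mostly Lyz2, which spanned 6154 to 40791 CPM over the libraries, while the next highest, Adgre1, reached 3082 CPM. The 11 erythroid markers, which would bring their own iron genes, summed to at most 1.17 CPM in any library, with Hba-a2 and Hbb-bt at 0 in all 30. B, T and NK and adipocyte markers summed to at most 0.827, 0.147 and 0.205 CPM, neutrophil markers to at most 19.0 CPM and stromal markers to 416 to 3747 CPM. In bulk RNA, fewer cells of a type and less RNA per cell cannot be told apart, here and in every result below.

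Per kilobase of exon, which allows genes to be compared, the ferritins stood far above the rest. Fth1 ranged over the groups from 2591 ± 19.1 to 14198 ± 1944 CPM per kb and Ftl1 from 1347 ± 26.4 to 5522 ± 614 CPM per kb. Tfrc followed at 36.5 ± 2.76 to 366 ± 19.0 CPM per kb, and Slc11a1 at 28.4 ± 0.582 to 160 ± 5.43 CPM per kb. The other genes had group means under 70 CPM per kb: Ncoa4 23.6 to 66.4, Slc11a2 10.9 to 31.9, Slc40a1 3.95 to 22.8, Steap3 9.56 to 17.9, Ireb2 8.16 to 13.5 and Steap4 0.0533 to 17.7. The ratio of the highest to the lowest group mean was 331 for Steap4, 10.0 for Tfrc, 5.78 for Slc40a1, 5.62 for Slc11a1 and 5.48 for Fth1, and only 1.87 for Steap3 and 1.65 for Ireb2. The 2 ferritin genes together held 1.97 ± 0.249% of TMM-scaled counts in KO 1-month cultures and 0.405 ± 0.00392% in WT 20-month multinucleated cultures.

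**Figure D1:**
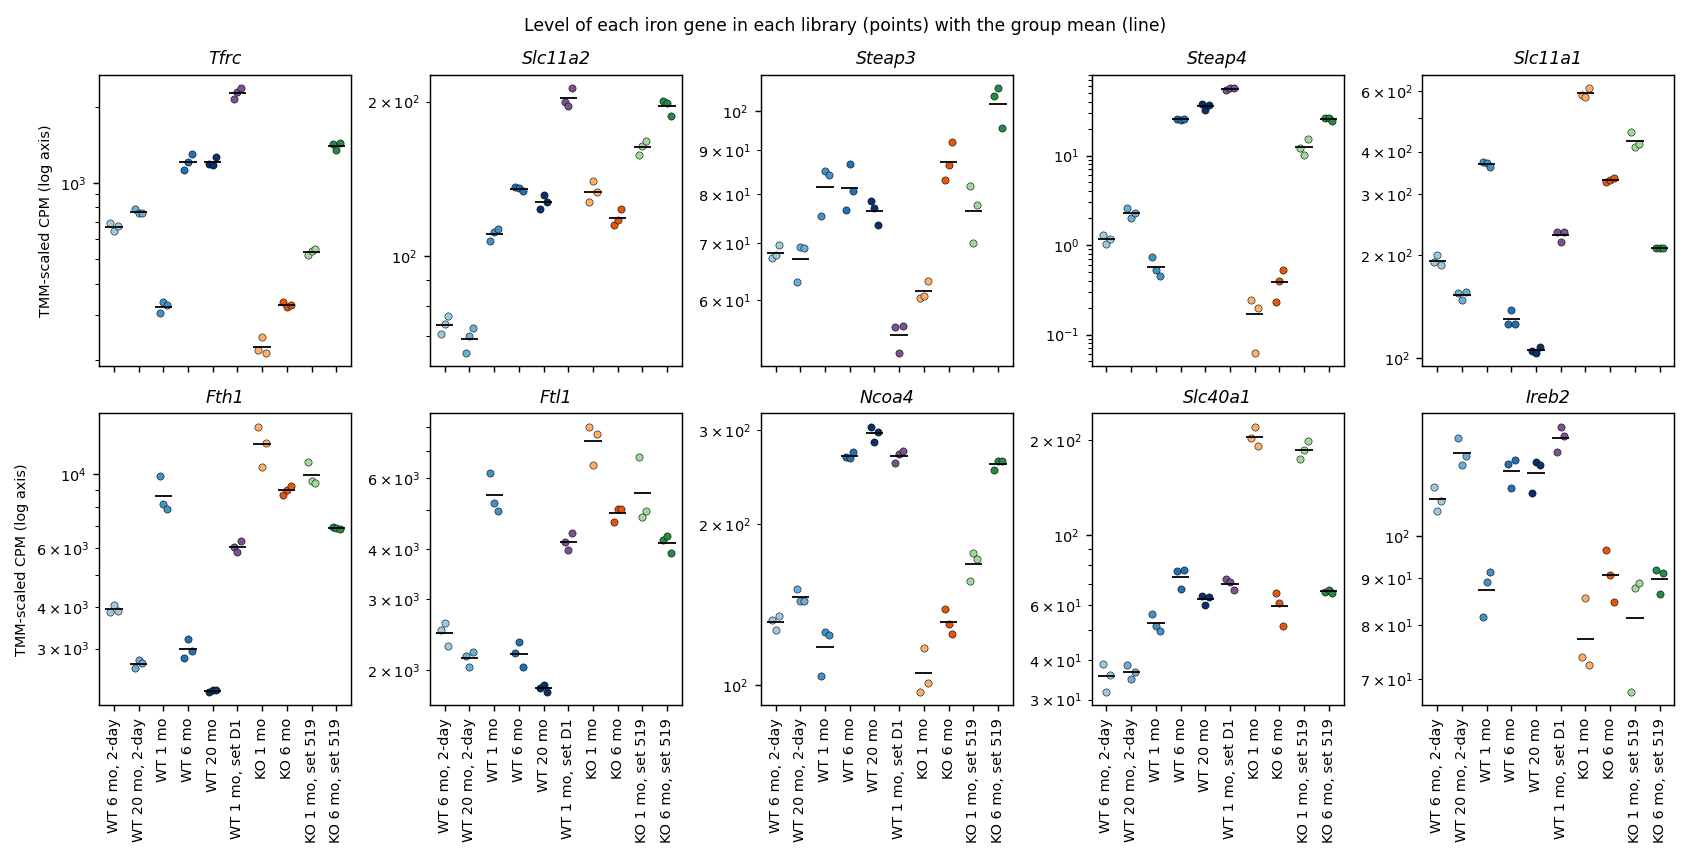
Level of each of the 10 iron genes in each of the 30 libraries (points, TMM-scaled CPM on log axes, 1 panel a gene) with the mean of each group of 3 (line); groups are WT 2-day cultures, WT multinucleated cultures by age, set D1, KO cultures and set 519. Tfrc is highest in set D1 (2265 CPM) and lowest in unprefixed KO 1-month cultures (226 CPM), Fth1 has its highest mean in the latter (12295 CPM), and Slc40a1 stands near 200 CPM only in the 2 groups of KO 1-month cultures.

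The culture stage was compared within WT, between multinucleated and 2-day cultures of the same donor age. Of the 10 genes, Tfrc, Slc11a2, Steap3, Steap4, Ncoa4 and Slc40a1 rose toward the multinucleated stage, while Slc11a1 and Fth1 fell. By edgeR's quasi-likelihood test, 6 of the 10 genes were higher, 2 lower and 2 not called at 6 months, where 50.8% of the 15310 genes tested were called at an adjusted p under 0.05 (23.4% higher, 27.4% lower). At 20 months 6 were higher, 3 lower and 1 not called, where 52.3% of all genes were called (25.4% higher, 26.9% lower). The median log2 fold change of the 10 genes was 0.55 at 6 months and 0.42 at 20 months, beside -0.01 and 0.00 over all genes.

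Among the uptake genes, Tfrc read 692, 645 and 674 CPM in the 2-day cultures of 6-month donors and 1128, 1203 and 1304 CPM in the multinucleated ones. At 20 months it read 791, 761 and 757 CPM and then 1190, 1180 and 1265 CPM. The stages did not overlap at either age, with rises of 1.81-fold (log2 0.85 ± 0.06 SE, adjusted p = 4.8e-15) and 1.57-fold (log2 0.65 ± 0.06, adjusted p = 4.5e-12). Slc11a2, the endosomal transporter, rose 1.84-fold at both ages (log2 0.88 ± 0.05 in each), from 73.7 ± 2.94 to 135 ± 1.28 CPM and from 69.2 ± 3.92 to 128 ± 4.03 CPM. The reductase Steap3, which serves the transferrin cycle in red cell precursors, moved little, from 68.3 ± 1.26 to 81.4 ± 5.13 CPM at 6 months (log2 0.25 ± 0.06, adjusted p = 8.7e-04). Steap4, a plasma membrane and endosomal metalloreductase, showed the steepest rise. It went from 1.30, 1.03 and 1.17 CPM to 25.4, 25.2 and 25.4 CPM at 6 months, and from 2.60, 2.00 and 2.28 CPM to 37.5, 32.1 and 36.8 CPM at 20 months. These were 21.6-fold and 15.6-fold rises (log2 4.43 ± 0.14 and 3.96 ± 0.12).

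Among storage genes, Ncoa4 rose 2.05-fold at 6 months (131 ± 4.02 to 269 ± 3.81 CPM) and 2.02-fold at 20 months (146 ± 4.50 to 295 ± 9.79 CPM). The ferritin chains went down by less: Fth1 fell from 3943 ± 109 to 2988 ± 204 CPM at 6 months (log2 -0.40 ± 0.07, adjusted p = 1.8e-05) and from 2701 ± 67.3 to 2244 ± 16.5 CPM at 20 months (log2 -0.27 ± 0.07, adjusted p = 0.00223). Ftl1 fell at 20 months (log2 -0.25 ± 0.09, adjusted p = 0.0195), a call that was lost without replicate 3 of the 2-day or replicate 4 of the multinucleated cultures (adjusted p = 0.0667 and 0.0616). At 6 months its log2 fold change was -0.17 ± 0.09 (adjusted p = 0.114) and the libraries overlapped. Slc40a1, the exporter, rose from 39.0, 31.7 and 35.8 CPM to 76.7, 67.2 and 77.3 CPM at 6 months (2.07-fold, log2 1.05 ± 0.08) and 1.71-fold at 20 months (log2 0.77 ± 0.08). Slc11a1 fell 1.48-fold and 1.45-fold (log2 -0.57 ± 0.05 and -0.53 ± 0.05), from 192 ± 6.67 to 130 ± 7.07 CPM and from 152 ± 4.42 to 105 ± 2.16 CPM. Ireb2 did not pass at either age (log2 0.10 ± 0.07 and -0.07 ± 0.07). All 10 osteoclast markers rose with the stage at both ages and all 12 cell cycle genes fell. Stromal markers summed to 3437 to 3747 CPM in 2-day and 1193 to 1567 CPM in multinucleated cultures at 6 months, and to 2824 to 3002 and 2415 to 2781 CPM at 20 months. The part of these in the iron genes was not tested.

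The stage effect was then set against donor age with an interaction term. No gene of the 10 passed edgeR's quasi-likelihood test, 3 had an unadjusted p under 0.05, and DESeq2 called 0, while 12.4% of all genes were called (7.50% with a more positive and 4.86% with a more negative effect at 20 months). The differences closest to the threshold were those of Tfrc (log2 -0.20 ± 0.08, adjusted p = 0.0950) and Slc40a1 (log2 -0.28 ± 0.11, adjusted p = 0.105). With only the compared groups in the fit 3 genes passed, Slc40a1, Tfrc and Ireb2 (adjusted p = 0.0270, 0.0175 and 0.0386), and with the replicate number as a block Slc40a1 did (adjusted p = 0.0259).

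The genotype was compared in multinucleated cultures, first at 1 month. KO cultures held more Slc40a1, Slc11a1 and ferritin RNA and less Tfrc, Steap3 and Steap4 RNA than WT cultures. Of the 10 genes 5 were higher and 5 lower, where 41.4% of all genes tested were called (20.7% higher, 20.8% lower). The median log2 fold change was 0.05 beside -0.00 over all genes.

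Slc40a1 showed the largest rise, from 56.1, 51.5 and 49.5 CPM in WT to 203, 221 and 192 CPM in KO (3.92-fold, log2 1.97 ± 0.08, adjusted p = 3.0e-20). Every KO library was above 190 CPM and every WT library below 60 CPM. Slc11a1 was higher (592 ± 20.1 against 369 ± 6.99 CPM, log2 0.68 ± 0.05). Fth1 read 13897, 10540 and 12449 CPM in KO and 9859, 8154 and 7856 CPM in WT (1.43-fold, log2 0.51 ± 0.07, adjusted p = 5.4e-07). Ftl1 read 8036, 6471 and 7691 CPM in KO and 6175, 5208 and 4976 CPM in WT (1.36-fold, log2 0.44 ± 0.09, adjusted p = 1.4e-04). In both ferritin genes the groups came close without overlapping, and replicate 1 of WT was the highest of its group. Slc11a2 was 1.21-fold higher (134 ± 6.41 against 111 ± 3.02 CPM).

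Tfrc fell from 306, 339 and 328 CPM in WT to 219, 245 and 213 CPM in KO (log2 -0.52 ± 0.06, adjusted p = 2.9e-09). Steap3 fell from 81.5 ± 5.31 to 61.5 ± 1.58 CPM (log2 -0.41 ± 0.06). Steap4 was scarce in both: 15, 11 and 11 counts in WT and 5, 1 and 4 counts in KO, with a fitted log2 fold change of -1.63 ± 0.43 (adjusted p = 0.00223). Ncoa4 (118 ± 12.0 in WT, 105 ± 10.7 CPM in KO) and Ireb2 (87.5 ± 5.07 and 77.3 ± 7.23 CPM) were lower by little (adjusted p = 0.0366 and 0.0396), with overlapping libraries. Both calls were lost with DESeq2 (adjusted p = 0.0587 and 0.0557), with RLE scaling, without the count filter, with only the compared groups in the fit, and when replicate 1 or 4 of KO or replicate 3 or 4 of WT was left out. Beside these values, all 10 osteoclast markers were lower and all 12 macrophage markers higher in KO, with sums of 619 to 679 against 2231 to 2334 CPM and of 47107 to 50579 against 28759 to 31311 CPM. Of 12 cell cycle genes 11 were lower in KO, and 5 of 8 stromal markers were higher (514 to 594 against 433 to 472 CPM summed). The part of these in the iron genes was not tested.

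At 6 months the ferritin and Tfrc differences were larger than those between unprefixed cultures at 1 month, and the Slc40a1 difference was small and opposite. Of the 10 genes 3 were higher in KO, 6 lower and 1 not called, where 60.0% of all genes were called (30.5% higher, 29.5% lower), with a median log2 fold change of -0.25 beside -0.02 over all genes. Fth1 read 8657, 8997 and 9221 CPM in KO and 2805, 3209 and 2952 CPM in WT (log2 1.58 ± 0.07, adjusted p = 4.2e-19). Ftl1 read 4661, 5032 and 5009 CPM in KO and 2209, 2352 and 2033 CPM in WT (2.23-fold, log2 1.16 ± 0.09). Slc11a1 was 2.55-fold higher at 331 ± 4.82 against 130 ± 7.07 CPM. No KO library reached down to the WT range in any of the 3 genes.

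In the other direction, Tfrc read 338, 323 and 328 CPM in KO and 1128, 1203 and 1304 CPM in WT (3.68-fold lower, log2 -1.88 ± 0.06, adjusted p = 4.2e-24). Steap4 read 0.230, 0.392 and 0.525 CPM in KO against 25.2 to 25.4 CPM in WT, a log2 difference of -6.01 ± 0.16 that rests on 5, 9 and 12 counts in KO and 435, 481 and 524 in WT. Ncoa4 was 2.05-fold lower, at 131 ± 7.10 against 269 ± 3.81 CPM (log2 -1.04 ± 0.06). Ireb2 fell by 0.38 ± 0.07 on the log2 scale and Slc11a2 by 0.19 ± 0.05. Slc40a1 was slightly lower in KO, at 65.6, 60.9 and 51.3 CPM against 76.7, 67.2 and 77.3 CPM (log2 -0.32 ± 0.08, adjusted p = 6.0e-04). Steap3 did not pass (log2 0.10 ± 0.06, adjusted p = 0.163). Here too all 10 osteoclast markers were lower in KO (2307 to 2616 against 20530 to 22179 CPM summed), 11 of 12 macrophage markers were higher (27727 to 28418 against 11529 to 11692 CPM) and 10 of 12 cell cycle genes were higher. Of 8 stromal markers 7 were lower in KO (715 to 776 against 1193 to 1567 CPM summed). The part of these in the iron genes was not tested.

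The difference between the genotype effects at 6 and 1 month was itself tested. Of the 10 genes 4 had a more positive and 5 a more negative effect at 6 months, where 48.6% of all genes passed the same test (27.1% and 21.6%). Slc40a1 changed most after Steap4, by -2.29 ± 0.11 on the log2 scale (adjusted p = 7.9e-18), from 3.92-fold higher in KO at 1 month to 1.24-fold lower at 6 months. The Tfrc effect became more negative by 1.36 ± 0.08 and the Fth1 effect more positive by 1.07 ± 0.10. Only Ireb2 did not pass (log2 -0.20 ± 0.10, adjusted p = 0.105), though it did with DESeq2 (adjusted p = 0.0477) and in the fit without sets 519 and D1 (adjusted p = 0.0497). These differences depend on the WT 1-month group. Against set D1, KO 1-month log2 fold changes were -3.33 for Tfrc, -8.25 for Steap4 and -1.35 for Ncoa4. At 6 months they were -1.88, -6.01 and -1.04. Slc11a1 stood at 1.38 and then 1.35, and Slc11a2 at -0.60 and then -0.19. Slc40a1 (1.55 and then -0.32) and Fth1 (1.02 and then 1.58) kept the direction of change. The interaction with set D1 was not tested.

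**Figure D2:**
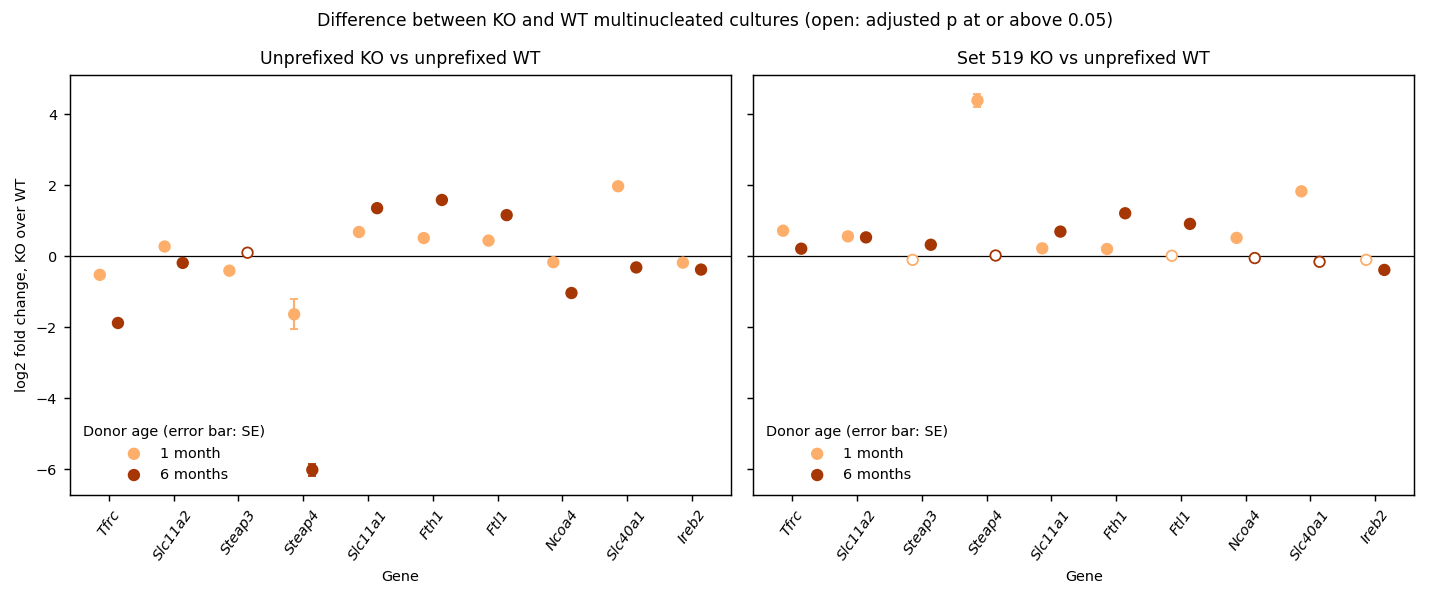
log2 fold change of KO over unprefixed WT multinucleated cultures for each of the 10 genes (points, with SE bars) at 1 month (light) and 6 months (dark), for unprefixed KO (left) and set 519 KO (right); open points did not pass adjusted p 0.05. Slc40a1 is near 2 at 1 month in both panels, the ferritins are above 0.9 at 6 months in both, and Tfrc and Steap4 lie below 0 on the left and not on the right.

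The KO cultures of set 519 were compared with the same WT libraries, so the values below share their controls with those above and are given side by side. At 1 month 7 of the 10 genes were higher and 3 not called, where 57.0% of all genes were called (27.2% higher, 29.8% lower). Slc40a1 again stood out at 175, 186 and 198 CPM (3.55-fold over WT, log2 1.83 ± 0.08). Tfrc, lower in unprefixed KO, was higher here at 517, 539 and 546 CPM (log2 0.72 ± 0.06), and Steap4 read 12.0, 10.2 and 15.4 CPM (log2 4.38 ± 0.19). Ncoa4 was also higher (168 ± 10.5 CPM, log2 0.52 ± 0.07). Fth1 was 1.15-fold higher with overlapping libraries (adjusted p = 0.0162), a call lost with only the compared groups in the fit (adjusted p = 0.0580) and without WT replicate 3 or 4 or KO replicate 2. Ftl1 was at 5505 ± 1088 CPM against 5453 ± 636 CPM and did not pass (adjusted p = 0.909).

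At 6 months 6 genes were higher in set 519 KO, 1 lower and 3 not called, where 51.6% of all genes were called (25.7% higher, 25.9% lower). Fth1 read 6943, 6912 and 6874 CPM (2.31-fold over WT, log2 1.21 ± 0.07) and Ftl1 4204, 4299 and 3896 CPM (1.88-fold, log2 0.91 ± 0.09). Every library of both was above all WT libraries. Slc11a1 was 1.62-fold higher (209 ± 0.582 CPM). Tfrc was slightly higher at 1428, 1345 and 1437 CPM (log2 0.21 ± 0.06, adjusted p = 0.00154), a call lost when counts were scaled by library totals alone (adjusted p = 0.159). Steap4 (26.3, 26.3 and 24.6 CPM) and Ncoa4 (259 ± 6.00 CPM) did not pass, with log2 fold changes of 0.02 ± 0.10 and -0.05 ± 0.06. Slc40a1 did not pass (66.2 ± 0.656 CPM, log2 -0.16 ± 0.08, adjusted p = 0.105), although 3 alternative fits called it lower. In set 519 the osteoclast markers did not follow the unprefixed KO: 7 were higher than in WT at 1 month, and 5 were higher and 2 lower at 6 months. The 12 macrophage markers were split at 1 month (4 higher, 6 lower) and 8 were higher at 6 months. Of 8 stromal markers 1 was higher at 1 month and 7 were lower at 6 months, and 12 and 10 of 12 cell cycle genes were lower. The summed osteoclast markers of set 519 lay above those of WT at both ages (6916 to 8131 against 2231 to 2334 CPM, and 26336 to 27521 against 20530 to 22179 CPM), whereas those of unprefixed KO lay below. The part of the markers, the set or the genotype in these values cannot be told apart.

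Set D1 offered a second group of WT 1-month cultures, of the other sex by its Xist counts and with the highest osteoclast marker sum of all groups. Against unprefixed WT 1-month cultures, 6 of the 10 genes were higher and 4 lower, where 74.5% of all genes were called (37.5% higher, 36.9% lower). Tfrc read 2139, 2285 and 2371 CPM against 306 to 339 CPM (6.98-fold, log2 2.80 ± 0.06), Steap4 53.5, 56.7 and 57.2 CPM against 0.450 to 0.734 CPM (log2 6.61 ± 0.14), and Ncoa4 268 ± 6.96 against 118 ± 12.0 CPM (log2 1.18 ± 0.06). Slc11a2, Ireb2 and Slc40a1 were higher by 0.88 ± 0.05, 0.55 ± 0.07 and 0.42 ± 0.08. Slc11a1, Steap3, Fth1 and Ftl1 were lower (log2 -0.69, -0.58, -0.51 and -0.39). In the same comparison 7 of 8 stromal markers were higher (summed 3418 to 3731 against 433 to 472 CPM) and all 12 cell cycle genes lower (median -2.77 on the log2 scale), and the part of these was not tested. Unprefixed KO 1-month cultures differed from set D1 in all 10 genes, 5 in each direction, where 73.7% of all genes were called (38.2% higher, 35.5% lower). With these controls the Slc40a1 rise in KO was 2.93-fold (log2 1.55 ± 0.08), the Fth1 rise 2.03-fold (log2 1.02 ± 0.07) and the Tfrc fall 10.0-fold (log2 -3.33 ± 0.06). The direction of the KO difference changed with the choice of WT for Slc11a2 (log2 0.27 with unprefixed WT, -0.60 with set D1) and Steap3 (-0.41 and 0.17, the latter lost with DESeq2 at adjusted p = 0.0735).

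Donor age was compared within WT. Between 1 and 6 months, 6 of the 10 genes rose in unprefixed multinucleated cultures, 3 fell and 1 did not pass, where 63.6% of all genes were called (31.2% higher, 32.5% lower). Tfrc rose 3.74-fold (306, 339 and 328 CPM to 1128, 1203 and 1304 CPM), Ncoa4 2.28-fold and Slc40a1 1.41-fold (52.4 ± 3.41 to 73.7 ± 5.65 CPM). Steap4 rose from 37 counts in the 3 libraries of 1 month to 1440 in those of 6 months (log2 5.47 ± 0.15). The ferritins and Slc11a1 fell: Fth1 2.89-fold (8623 ± 1081 to 2988 ± 204 CPM), Ftl1 2.48-fold (5453 ± 636 to 2198 ± 160 CPM) and Slc11a1 2.85-fold. In the same comparison all 10 osteoclast markers rose, 8 of 12 macrophage markers fell, 7 of 8 stromal markers rose (433 to 472 against 1193 to 1567 CPM summed) and 11 of 12 cell cycle genes fell. The part of these was not tested. The rises depended on the WT 1-month group. Set D1 already had more Tfrc (2265 CPM), Steap4 (55.8 CPM) and Slc11a2 (203 CPM) than 6-month WT (1212, 25.3 and 135 CPM). Its Ncoa4 (268 CPM) and Slc40a1 (70.0 CPM) were close to those at 6 months (269 and 73.7 CPM). Fth1 (6058 CPM), Ftl1 (4169 CPM) and Slc11a1 (228 CPM) in set D1 were above 6-month WT. Set D1 was not tested against 6-month WT.

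Between 6 and 20 months the log2 fold changes that passed were below 1 in size. In multinucleated cultures 1 gene rose and 4 fell, where 14.3% of all genes were called (7.39% higher, 6.90% lower), and in 2-day cultures 2 rose and 2 fell, where 18.8% were called (7.50% higher, 11.3% lower). Fth1 fell in both, from 2988 ± 204 to 2244 ± 16.5 CPM (log2 -0.41 ± 0.07, adjusted p = 9.7e-05) and from 3943 ± 109 to 2701 ± 67.3 CPM (log2 -0.55 ± 0.07, adjusted p = 7.8e-07). Slc11a1 fell in both (log2 -0.30 ± 0.05 and -0.33 ± 0.05) and Steap4 rose in both (log2 0.49 ± 0.09 and 0.96 ± 0.21). Tfrc was at 1212 CPM at both ages in multinucleated cultures (log2 -2.4e-04 ± 0.06) and rose 1.15-fold in 2-day cultures (adjusted p = 0.0102, but 0.0543 without replicate 2 of the 6-month cultures). The Slc40a1 and Ftl1 falls in multinucleated cultures (log2 -0.24 ± 0.08 and -0.28 ± 0.09, adjusted p = 0.0341 and 0.0286) were both lost without replicate 2 of the 6-month cultures or without replicate 1, 2 or 4 of the 20-month cultures. In addition, Ftl1 was lost without replicate 3 and Slc40a1 without replicate 4 of the 6-month cultures. In 2-day cultures 7 of 10 osteoclast markers were higher and 5 of 8 stromal markers lower at 20 months. In multinucleated cultures 5 stromal markers were higher and 1 lower, 9 of 12 cell cycle genes were lower, and 1 osteoclast marker was higher and 1 lower. The part of these was not tested.

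In KO, the same genes were followed from 1 to 6 months in each set. In unprefixed KO 4 rose, 5 fell and 1 did not pass, where 37.5% of all genes were called (19.7% higher, 17.8% lower), and in set 519 5 rose, 4 fell and 1 did not pass, where 32.5% were called (19.2% higher, 13.2% lower). Slc40a1 fell 3.46-fold in unprefixed KO (203, 221 and 192 CPM to 65.6, 60.9 and 51.3 CPM, log2 -1.79 ± 0.08) and 2.81-fold in set 519 (175, 186 and 198 CPM to 66.1, 66.9 and 65.6 CPM, log2 -1.49 ± 0.08). In unprefixed WT it had risen over the same ages, though set D1 (70.0 CPM) lay close to 6-month WT (73.7 CPM). Slc11a1, Fth1 and Ftl1 fell in both KO sets (log2 -0.84, -0.46 and -0.59, and -1.04, -0.52 and -0.41). Tfrc, Steap3 and Ncoa4 rose in both (log2 0.55, 0.50 and 0.32, and 1.39, 0.42 and 0.62). Steap4 rose in set 519 (log2 1.11 ± 0.12), and in unprefixed KO, with 10 counts in 3 libraries at 1 month and 26 at 6 months, it did not pass (log2 1.09 ± 0.46, adjusted p = 0.0690). Slc11a2 moved down in unprefixed KO (log2 -0.17 ± 0.05) and up in set 519 (log2 0.26 ± 0.05). Over the same ages all 10 osteoclast markers rose in both sets (medians of 2.49 and 1.93 on the log2 scale). All 12 macrophage markers fell in unprefixed KO, and in set 519 2 rose and 4 fell. Of 12 cell cycle genes 9 and 11 rose, and the part of these in the iron genes was not tested.

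**Figure D3:**
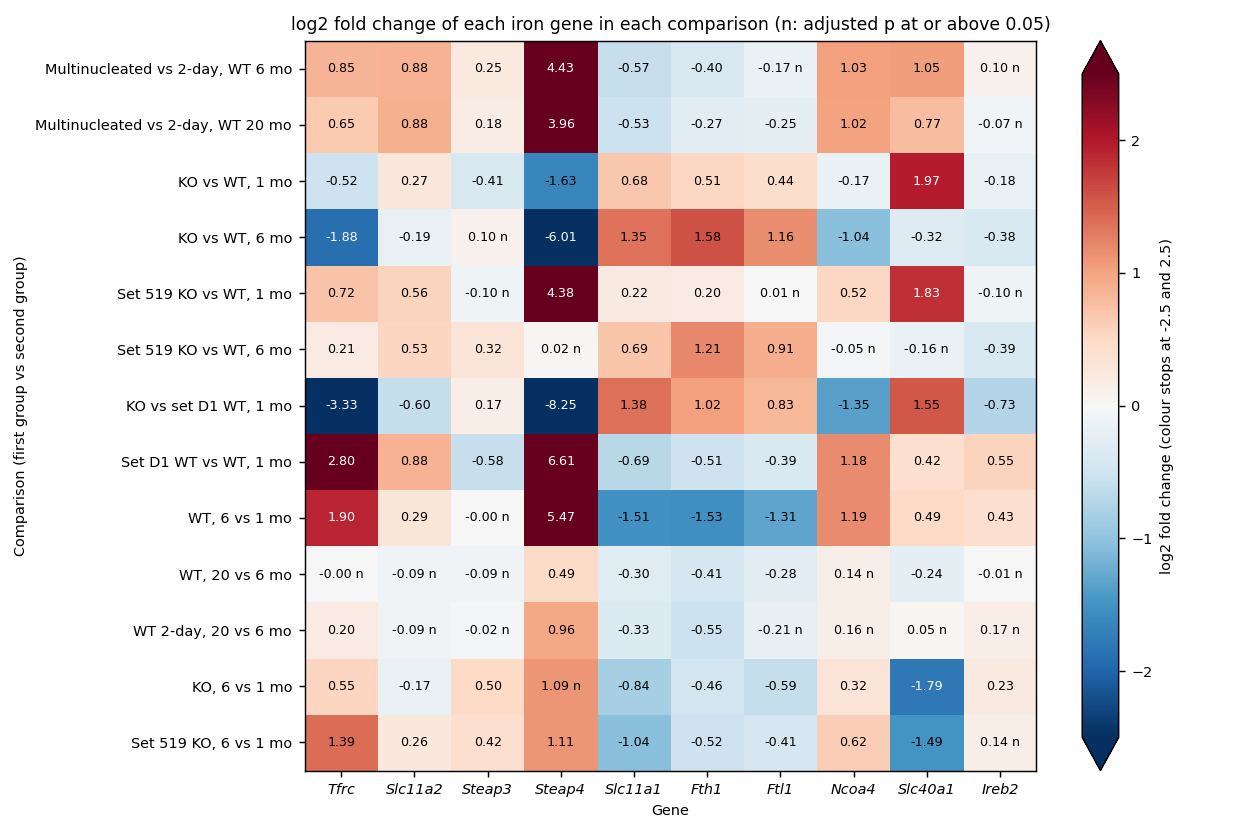
log2 fold change of each gene (columns) in each of 13 comparisons (rows; first group over second), printed in each cell and coloured red for higher and blue for lower, with colour stopping at 2.5; "n" marks adjusted p at or above 0.05. Tfrc, Steap4 and Ncoa4 take the opposite colour to Slc11a1, Fth1 and Ftl1 in most rows, with exceptions in both rows of set 519 KO over WT and, for Tfrc, in WT multinucleated cultures of 20 over 6 months; rows that share libraries are not independent.

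Ordered by group mean, Slc11a1 separated every group from its neighbour without overlap, from KO 1-month (592 CPM) through set 519 KO 1-month (430), WT 1-month (369), KO 6-month (331), set D1 (228), set 519 KO 6-month (209), 2-day 6-month (192), 2-day 20-month (152) and WT 6-month (130) to WT 20-month cultures (105 CPM). Fth1 ran from KO 1-month (12295) to WT 20-month multinucleated cultures (2244 CPM), and 2 of 9 neighbours overlapped: KO 1-month with set 519 KO 1-month, and KO 6-month (8958) with WT 1-month cultures (8623 CPM). Ftl1 overlapped in 6 of 9 neighbours. Tfrc overlapped only between multinucleated WT of 6 and 20 months and between KO 6-month (329) and WT 1-month cultures (324 CPM). Slc40a1 had a single wide gap, from 186 ± 11.8 CPM in set 519 KO 1-month to 73.7 ± 5.65 CPM in WT 6-month cultures, and 6 of its 9 neighbours overlapped. In Ncoa4 a group of 4 (WT 20-month, WT 6-month, set D1 and set 519 KO 6-month) lay at 259 to 295 CPM, above the other 6 at 105 to 168 CPM. Steap4 overlapped in 3 of 9 neighbours, Slc11a2 in 5 and Steap3 in 6. Ireb2 overlapped in 8 of 9, with its single gap between 2-day 6-month (110 ± 3.28) and KO 6-month cultures (90.8 ± 5.99 CPM). Overlap between neighbours was not counted over all genes tested, so these counts do not show whether such separation is unusual.

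Across the 30 libraries, which fall into 10 groups and share culture stage and set, the log2 levels of Fth1 and Ftl1 had a Pearson r of 0.986, Slc11a1 and Fth1 of 0.955, Steap4 and Ncoa4 of 0.942, and Tfrc and Steap4 of 0.909. Tfrc and Fth1 had an r of -0.588 and Fth1 and Ireb2 of -0.827. The ferritin chains did not keep one ratio: Fth1 over Ftl1 in CPM per kb was 2.83 ± 0.0564 in KO 6-month and 2.57 ± 0.0945 in KO 1-month cultures, and 1.92 ± 0.0406 and 1.95 ± 0.122 in multinucleated and 2-day WT 20-month cultures. In multinucleated WT cultures it was 2.45 ± 0.0240 at 1 month, 2.11 ± 0.141 at 6 months and 1.92 ± 0.0406 at 20 months, with the last 2 overlapping. Either chain can lose reads shared with its copies, so the size of this ratio is uncertain. Tfrc and ferritin were not tied either. In set D1, Tfrc was at its highest (2265 CPM) with Fth1 at 6058 CPM, while WT 20-month multinucleated cultures had the lowest Fth1 (2244 CPM) with Tfrc at 1212 CPM.

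**Figure D4:**
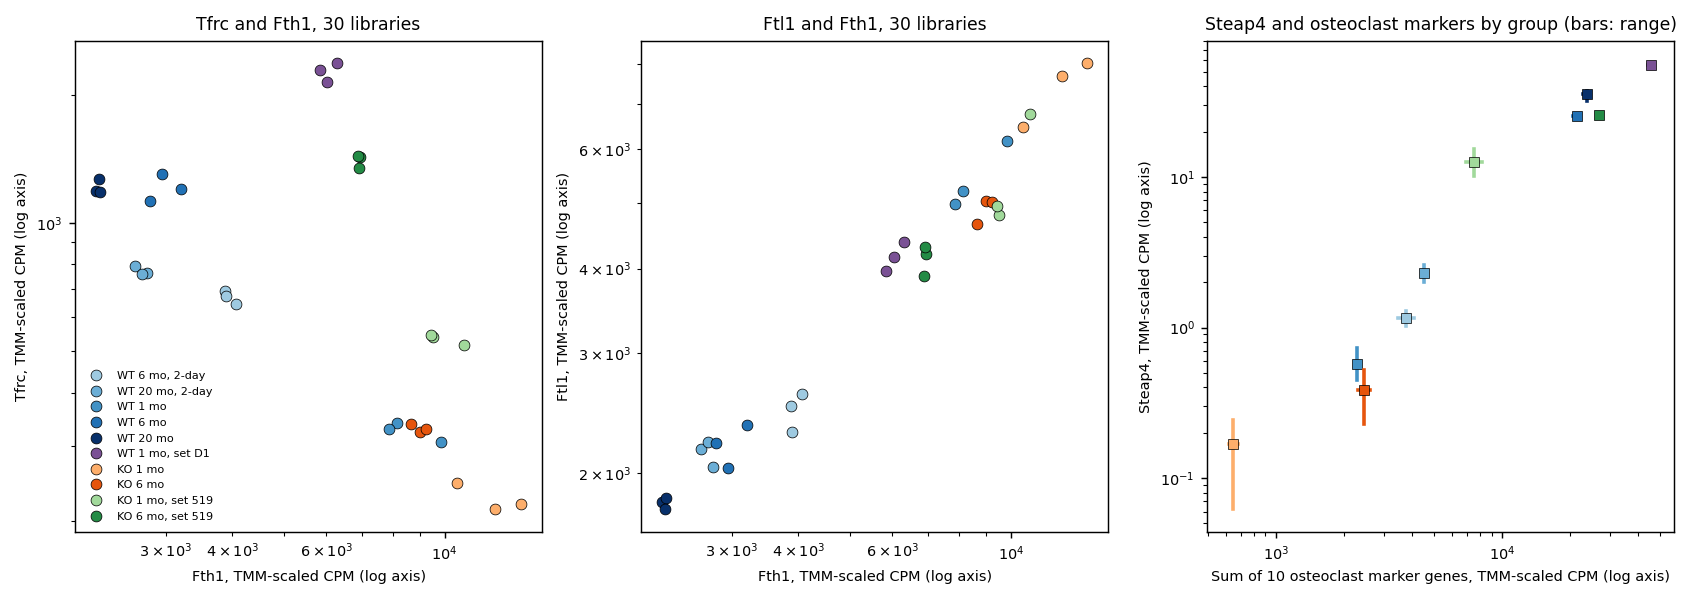
Left and middle: Tfrc and Ftl1 against Fth1 in the 30 libraries (points, TMM-scaled CPM, log axes, coloured by group). Right: Steap4 against the summed level of 10 osteoclast markers, 1 square a group, with bars for the range over its 3 libraries. Ftl1 follows Fth1 (r = 0.986), and set D1 and set 519 KO 6-month libraries lie apart on the left. The 10 groups run from 0.168 CPM of Steap4 at a marker sum of 619 to 679 CPM to 55.8 CPM at 44108 to 46513 CPM. The sum includes Mmp9 (up to 23101 CPM) and Calcr, both among the genes most like Steap4.

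The genes most like each of the 10 were taken from the 3 with the highest r of log2 CPM over the 30 libraries, a description with no test. Steap4 was closest to Mmp9 (r = 0.980), the gelatinase of osteoclasts, then Card14 and the calcitonin receptor gene Calcr. Tfrc was closest to Msi2 (0.986), Raph1 and Acap2. Slc11a2 was closest to the lysosomal hydrolase genes Tpp1 (0.977) and Hexa (0.975). Slc11a1 was closest to Evl (0.986), Clec4d and the myeloid transcription factor gene Irf8 (0.980). Fth1 had Ftl1, Lrpap1 (0.986) and the heme transporter gene Slc48a1 (0.982), and Ftl1 had Fth1, Lrpap1 and Gde1. Slc40a1 had Nmnat1 at 0.954, the macrophage receptor gene Mertk at 0.911 and Ubap1 at 0.909. Ncoa4 had Agap1 (0.990), Gm9821 and Firre, Ireb2 had Atp13a3 (0.971), Arhgap5 and Luc7l2, and Steap3 had Fem1a (0.911), Htra2 and Coro1c.

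Other genes of iron biology were counted by lists. Their counts are given beside the share of all genes called in the same comparison. A list near that share does not stand out by its total, but the share covers both directions. Its higher and lower parts are given with each comparison above. Of 20 genes of heme handling 19 were tested. In KO against WT 9 were higher and 2 lower at 1 month (41.4% of all genes called) and 11 higher and 3 lower at 6 months (60.0%), with medians of 0.07 and 0.30 beside 0.00 and -0.02 over all genes. Hmox1, the heme oxygenase that frees iron from heme, rose from 1263 ± 93.8 to 2964 ± 195 CPM at 1 month (log2 1.23 ± 0.07) and from 395 ± 30.9 to 1358 ± 37.0 CPM at 6 months (log2 1.78 ± 0.07). Slc48a1 (log2 0.78 and 1.40) and the biliverdin reductase gene Blvrb (log2 0.65 and 1.21) rose with it. In unprefixed WT multinucleated cultures 12 of the 19 fell from 1 to 6 months and 3 rose (63.6% of all genes called), led by Hmox1 (log2 -1.68 ± 0.07), Slc48a1 (-1.32) and Blvrb (-1.26). Against 6-month WT, set 519 KO had 10 higher and 1 lower (51.6% of all genes called), with Blvrb at 1.34, Slc48a1 at 1.26 and Hmox1 at 1.12.

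Of 20 other genes of iron transport, reduction and export 15 were tested. In KO against WT 9 were higher and 6 not called at 1 month (41.4% of all genes called), and 6 were higher, 1 lower and 8 not called at 6 months (60.0%). At 1 month the leaders were Lcn2, which binds iron-carrying siderophores (20.8 ± 3.61 to 58.1 ± 2.07 CPM, log2 1.48 ± 0.16), the hemoglobin scavenger receptor gene Cd163 (log2 1.22 ± 0.16) and the ferroxidase gene Cp (log2 1.01 ± 0.17). At 6 months they were Lcn2 (1.31 ± 0.0954 to 27.8 ± 5.69 CPM, log2 4.41 ± 0.26), Hfe, which binds the transferrin receptor (log2 1.46 ± 0.08), and the metal transporter gene Slc39a8 (log2 1.15 ± 0.09). Lcn2 was lower in set 519 KO than in WT at 1 month (2.32 ± 0.574 CPM, log2 -3.30 ± 0.31). Neutrophils also carry Lcn2, and their 8 markers summed to 18.6 to 19.0 CPM in KO 1-month, 6.58 to 8.19 in WT 1-month, 5.56 to 6.95 in KO 6-month, 2.42 to 2.86 in WT 6-month and 2.68 to 5.70 CPM in set 519 KO 1-month cultures, whose part was not tested. Only 2 of these 8 markers had enough counts to be tested, and the sum is mostly S100a8. That gene reached 18.1 CPM and the next highest, Cxcr2, 2.22 CPM, while S100a9 was at 0 counts in 25 of 30 libraries. Between the stages 8 of the 15 were lower in multinucleated cultures at 6 months and 2 higher (50.8% of all genes called), led by Steap2 (log2 -2.61 ± 0.17) and the iron transporter gene Slc39a14 (2.01-fold lower). The iron-sensing list (13 of 18 genes tested) was split at every comparison of genotype, with Aco1, which encodes the other iron regulatory protein, lower in KO at 6 months (122 ± 1.10 to 77.4 ± 3.10 CPM, log2 -0.65 ± 0.05). Hepcidin (Hamp) was at 0 counts in 24 of 30 libraries.

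The 24 genes of mitochondrial iron use and iron-sulfur cluster assembly were all tested. Between the stages 12 rose, 2 fell and 10 were not called at 6 months, where 50.8% of all genes were called (23.4% higher, 27.4% lower). At 20 months 10 rose, 4 fell and 10 were not called, where 52.3% were called (25.4% higher, 26.9% lower). The totals were near these shares, while most calls of the list were rises. Abcb8, a mitochondrial transporter gene, was up at both ages (log2 0.71 ± 0.06 and 0.73 ± 0.06) and the scaffold gene Iscu at 6 months (log2 0.53 ± 0.08). In KO against WT 9 were lower, 0 higher and 15 not called at 1 month, where 41.4% of all genes were called (20.7% higher, 20.8% lower). The total was no larger a share, but all calls lay on the lower side. The median log2 fold change was -0.17 beside -0.00 over all genes. The ferredoxin reductase gene Fdxr led (16.3 ± 1.40 to 9.10 ± 0.674 CPM, log2 -0.84 ± 0.10). At 6 months 9 were lower, 4 higher and 11 not called, in total no larger a share than the 60.0% of all genes (30.5% higher, 29.5% lower). The mitochondrial iron importer gene Slc25a37 was up (59.0 ± 0.636 to 120 ± 1.16 CPM, log2 1.02 ± 0.06) and Isca1 down (log2 -0.72 ± 0.06). In set 519, 14 of the 24 rose from 1 to 6 months and 1 fell, where 32.5% of all genes were called.

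**Figure D5:**
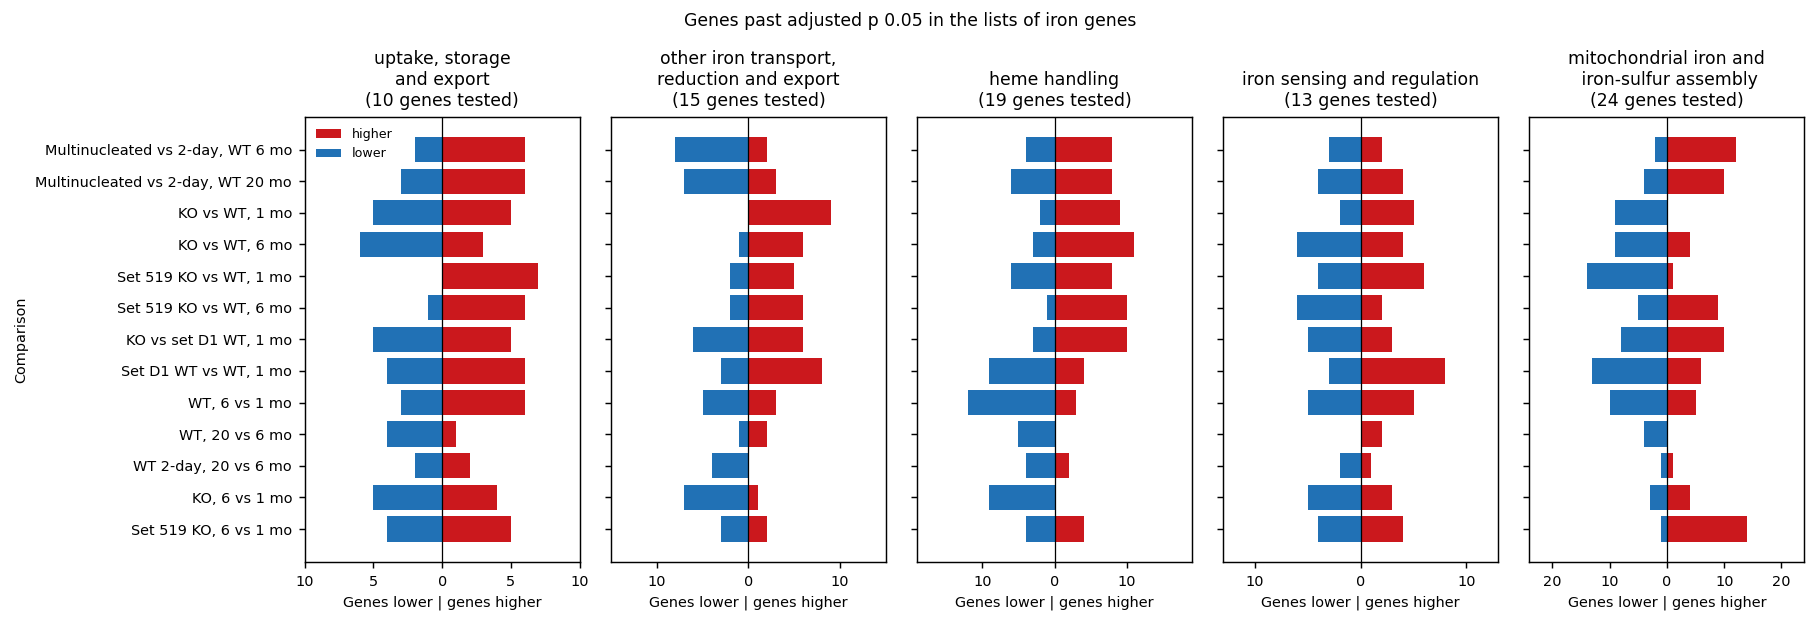
Number of genes called higher (red, to the right) and lower (blue, to the left) at adjusted p under 0.05 in each comparison (rows), for the 10 genes and 4 further lists of iron genes (panels, each axis running to the number of genes tested in that list). Heme handling genes lie mostly to the right in the KO rows and to the left in the age rows of WT and unprefixed KO, and mitochondrial genes to the right in the stage rows; the share of all genes called in each row ranged from 14.3% to 74.5%.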

How the data were processed

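RNA was measured in 30 libraries, and what the authors deposited are raw counts, whole numbers per gene. Per the file headers, featureCounts 1.6.0 counted fragments over exons of the Ensembl 88 annotation of GRCm38, with no option for strand or multimapping reads recorded, from alignments whose name gives STAR. The submitters' processing notes name HTSeq and mm10. The aligner version and trimming are not given in the sources used here. Groups came from sample titles. No pair of replicates was a repeat deposit: chi-square per degree of freedom between them was 1.28 to 22.3.

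In R 4.3.3, the quasi-likelihood F test of edgeR 4.0.16 was run on TMM-normalized counts, fitting 30 libraries together with a term for each group and no covariate. filterByExpr kept 15310 genes and removed 35376. All adjusted p are Benjamini-Hochberg values over the 15310 genes, with a threshold of 0.05, and SE is the log2 fold change divided by the root of F. Symbols matched 99.4% of identifiers. Alternatives were other scalings, no filter, DESeq2 1.42.0, a replicate block, fits of fewer groups, and leaving out each replicate. The procedure was tested on simulated data. Named genes of the lists were the at most 3 called genes of largest fold change, in which 1 of the groups averaged 5 CPM or more. The members and lists were chosen with earlier results of these data known. A few items are not reported here.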

Additional observations from a re-analysis of the deposited data

Results flagged for a closer look

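The genotype effect differed between donor ages in 9 of the 10 genes, by edgeR's interaction term over the unprefixed multinucleated cultures, 3 libraries a group, where 48.6% of all genes tested passed. As log2 difference of the KO effect at 6 months minus that at 1 month, ± SE, it was -4.38 ± 0.67 for Steap4, -2.29 ± 0.11 for Slc40a1, -1.36 ± 0.08 for Tfrc, -0.87 ± 0.09 for Ncoa4 and -0.46 ± 0.07 for Slc11a2. It was 1.07 ± 0.10 for Fth1, 0.72 ± 0.13 for Ftl1, 0.67 ± 0.07 for Slc11a1 and 0.51 ± 0.09 for Steap3. Adjusted p ran from 7.9e-18 for Slc40a1 to 1.5e-05 for Ftl1. The size for Steap4 rests on few counts, with sums over 3 libraries of 10 in KO and 37 in WT at 1 month and 26 in KO at 6 months. In Slc40a1 and Slc11a2 the effect changed from higher to lower in KO. In the same libraries the summed osteoclast markers of WT stood at 2231 to 2334 CPM at 1 month and 20530 to 22179 CPM at 6 months, and those of KO at 619 to 679 and 2307 to 2616 CPM. The part of this marker difference in the interaction was not tested. With set D1 as the WT 1-month group, Slc11a2 was already lower in KO at 1 month (log2 -0.60). The Tfrc, Steap4 and Ncoa4 effects (log2 -3.33, -8.25 and -1.35) were then more negative at 1 month than at 6 months (-1.88, -6.01 and -1.04). An interaction with set D1 was not tested.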

How the results depend on the processing

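No fold change of the 10 genes that was called, as reported or under an alternative, changed sign. Values called in neither did so 44 times in 11 results, all reported at 0.10 or less in size on the log2 scale (Tfrc in WT multinucleated cultures of 20 against 6 months and Steap3 in those of 6 against 1 month among them). Over all alternatives, 1949 values kept their side of the threshold, 54 lost a call and 25 gained one. The count of genes called out of the 10 stayed within 1.5 times in 194 cases and moved further in 9. In the interaction of stage and age, reported at 0, it was 1 with the replicate block and 3 with only the compared groups in the fit, and 0 to 1 with a replicate left out. In WT 2-day cultures, 20 against 6 months, reported at 4, it was 7 with only the compared groups. In WT multinucleated cultures, 20 against 6 months, reported at 5, it was 3 to 5 with a replicate left out. Over all genes, the latter comparison called 3332 genes with only the compared groups, against 2188, 1343 and 1444 without replicate 4 or 1 of WT 20-month and 1378 and 1448 without replicate 3 or 4 of WT 6-month cultures. The 2-day comparison called 1739 without replicate 2 of WT 6-month and 1911 without replicate 1 of WT 20-month cultures, against 2882, and the interaction 2868 with only the compared groups, against 1893.

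Library totals without TMM moved the median over all genes to 0.11 in WT and 0.11 in unprefixed KO from 1 to 6 months, and to -0.12 in set 519 KO against 6-month WT. With these totals the genes called higher and lower went from 3162 and 3178 to 2416 and 4218 in KO against WT at 1 month, from 3942 and 3964 to 3098 and 5066 in set 519 KO against WT at 6 months, from 1132 and 1056 to 1300 and 749 in WT multinucleated and from 1149 and 1733 to 1585 and 1368 in WT 2-day cultures of 20 against 6 months, and from 3012 and 2731 to 4567 and 1876 in unprefixed KO of 6 against 1 month. In set 519 KO of 6 against 1 month they went from 2944 and 2026 to 2407 and 2528, with RLE size factors to 2392 and 2588 and with DESeq2 to 2386 and 2580.

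Same-numbered libraries of compared groups had correlations of deviations of -0.08 to 0.26. Only replicate 1 of KO and WT at 1 month exceeded 0.1, and the numbers were not taken to pair samples. The replicate block changed the Ncoa4 (adjusted p = 0.067) and Ireb2 (adjusted p = 0.0507) calls in KO against WT at 1 month and gave Slc40a1 a call in the stage and age interaction (log2 -0.36, adjusted p = 0.0259).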
